A study of Mus musculus with 23 samples.

Results

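Astrocyte RNA from mice that carried CreER with a deleted Aldh7a1 gene was compared with RNA from mice without CreER, over both diets of the study at once. The libraries were divided by 1 measured value: a library whose Esr1 reads exceeded 5 CPM (reads of the gene scaled to a fixed library total) was taken as Esr1-high, and one below as Esr1-low. This rule placed all 23 of the 23 libraries, 14 as Esr1-high and 9 as Esr1-low. The highest Esr1-low library held 1.80 CPM of Esr1 and the lowest Esr1-high library held 15.7, so no library lay near the threshold. Diet entered each fit as a second term.

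Cortical astrocytes were captured from single mice by magnetic-activated cell sorting, with beads that bind ACSA-2, an antigen on the surface of astrocytes, and polyadenylated RNA was sequenced, 1 library per mouse. All mice had both Aldh7a1 alleles floxed. cKOAstro mice had in addition CreER at 1 of their Slc1a3 alleles (Slc1a3-CreER/+), and ConAstro mice were littermates that lacked CreER. All received 4-hydroxytamoxifen at postnatal days 3 to 4 and were labelled male and collected at postnatal day 70. Mice labelled SFN-fed ate sulforaphane (SFN) from postnatal day 21, and the others ate a control diet. The Esr1-low libraries comprised 4 without SFN and 5 with SFN, and the Esr1-high libraries 7 and 7. CreER is driven by the Slc1a3 promoter, so recombination is limited to cells that used that promoter when tamoxifen was given, and 1 Slc1a3 copy is replaced in every carrier. CreER, the replaced Slc1a3 copy and the Aldh7a1 deletion come together and cannot be told apart in these comparisons.

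ALDH7A1 is an aldehyde dehydrogenase that removes an aldehyde made in the breakdown of lysine. When it is missing, that aldehyde cyclises and binds pyridoxal phosphate, the active form of vitamin B6, and inherited loss causes pyridoxine-dependent epilepsy. Of the major cell types of the mouse brain, the study found the enzyme only in astrocytes. They also clear glutamate, through the transporters encoded by Slc1a3 and Slc1a2, and buffer potassium. SFN is an activator of NRF2, the transcription factor that turns on glutathione synthesis and other antioxidant genes when its inhibitor KEAP1 is modified. CreER joins Cre to the ligand-binding part of an estrogen receptor, the product of Esr1.

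Esr1 (chromosome 10, 4611989 to 5005633), Aldh7a1 (chromosome 18, 56524722 to 56572991) and Slc1a3 (chromosome 15, 8634124 to 8710807) define or follow the division and are given as a description, without a test. From here on, levels are CPM after scaling for library composition. Esr1 averaged 19.6 CPM in the Esr1-high libraries and 1.04 CPM in the Esr1-low libraries. Aldh7a1 measured 177, 199, 207, 210.4, 217, 219.9, 221.95, 222 and 226 CPM in the Esr1-low libraries and between 43.0 and 77.2 CPM in the Esr1-high libraries, whose mean of 55.0 CPM was 26.0% of the Esr1-low mean of 211 CPM. Slc1a3 averaged 2210 CPM in the Esr1-high libraries, 47.6% of the 4647 CPM of the Esr1-low libraries. None of these 3 genes overlapped between the groups on either diet.

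**Figure D1:**
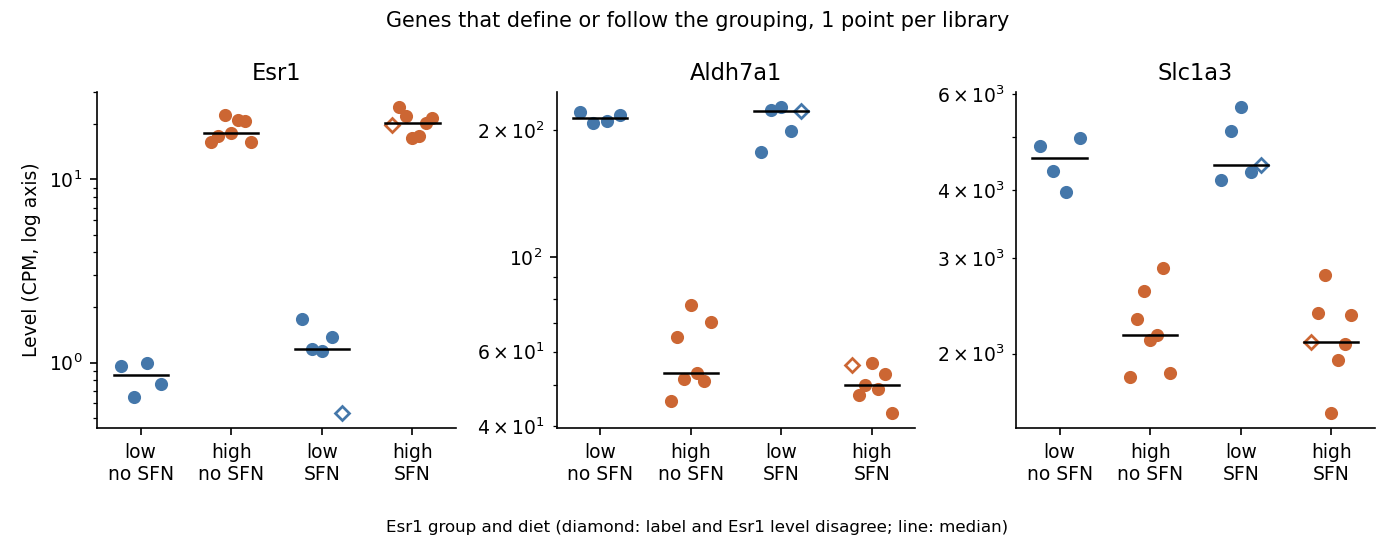
CPM (log axis) of Esr1, Aldh7a1 and Slc1a3 in each of the 23 libraries, by Esr1 group and diet; lines are medians and open diamonds are the 2 libraries whose genotype label and Esr1 level disagree. Aldh7a1 lies between 177 and 226 CPM in the Esr1-low libraries and between 43.0 and 77.2 CPM in the Esr1-high libraries.

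The Esr1 level went against the genotype label in 2 libraries. The SFN-fed library labelled ConAstro replicate 1 was Esr1-high, and the SFN-fed library labelled cKOAstro replicate 2 was Esr1-low. The count of calls over both diets, and some other values, are therefore also given without these libraries. Values on the SFN diet alone, and those compared between diets, include both libraries unless stated. Another library, labelled cKOAstro replicate 2, held 1541 CPM of Xist and 0.0077 CPM of Ddx3y although labelled male. All 6 libraries named Astro were Esr1-high, against 8 of the 17 with numbered names, and among the 6 name prefixes only 2 held libraries of both Esr1 groups. Without SFN, all 4 Esr1-low libraries had prefix 143 and the 7 Esr1-high ones 141, 146 or Astro. Group and prefix cannot be told apart there. The first principal component, the main axis of variation, held 22.7% of variance. On it, Astro-named libraries lay between -58.0 and -27.1, except SFN-fed ConAstro replicate 1 at 38.1. Numbered ones lay between -1.69 and 29.5, except SFN-fed cKOAstro replicate 2 at -51.9. These are the 2 libraries that go against their labels. Totals ran from 74771451 to 84049525 reads in the Esr1-low libraries without SFN, 75992248 to 219904257 in those with SFN, 107847897 to 391701247 in the Esr1-high libraries without SFN and 46890715 to 140464734 in those with SFN. The mean of the 2 within-diet differences in log2 total was 0.69 (two-sided exact permutation test within diet, p = 0.0386). It was 1.59 without SFN and -0.21 with SFN. The labelled cell type was astrocytes, and 12 astrocyte markers summed to between 15557 and 28541 CPM, against 260 to 1419 CPM for 14 neuronal markers. Markers of oligodendrocytes, the myelin-forming cells, were abundant too: 10 of them summed to between 22499 and 58060 CPM, and their median was above that of the astrocyte markers in each Esr1 group on each diet (27556 to 31529 against 20486 to 24585 CPM). These sums are not scaled for gene length, and they show that the libraries held much oligodendrocyte RNA beside that of astrocytes.

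The comparison over both diets asked which astrocyte genes differ with the deletion. Of 17299 genes tested, 1 gene differed at an adjusted p-value under 0.05, which is 0.00578% of the genes (edgeR quasi-likelihood test, Benjamini-Hochberg adjustment). This gene was A630020A06, a long noncoding RNA, and it was higher in the Esr1-high libraries. DESeq2 called the same single gene, and limma-voom with sample quality weights called A630020A06, Pax8 and Slc45a2. Of these, Pax8 alone was lower in the Esr1-high libraries. At an unadjusted p under 0.05, edgeR listed 1108 genes, or 6.4% of those tested, of which 557 were higher and 551 lower in the Esr1-high libraries. The second lowest adjusted p was 0.681. That share depended on the libraries and the tool. At the same limit limma-voom listed 2310 genes (13.4%), and edgeR listed 2636 (15.3%) in the 21 libraries whose label and Esr1 level agree. Leaving out 1 library gave 609 to 2520 with edgeR, the most without the SFN-fed library labelled cKOAstro replicate 2. With libraries grouped by their genotype labels, edgeR called 0 genes (3569 at an unadjusted p under 0.05) and DESeq2 called 63, among them A630020A06, AW549877, Cntn1, Slfn3 and Slc45a2. In the 21 libraries whose label and Esr1 level agree, edgeR called 2, A630020A06 and Slc45a2, or 0.0116% of the genes tested there.

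A630020A06 carries the symbol Gm2093 in RefSeq, to which it was matched by a synonym. It lies on the plus strand of chromosome 15, from 3996039 to 4015858 (GRCm38, the build also called mm10), 4.62 Mb from Slc1a3. Its neighbour AW549877, a protein-coding gene, runs away from it on the minus strand, from 3982035 to 3995746, and 292 bases separate the start sites. Those bases are shown because both genes begin at their ends and the results for both are given next. They are the plus strand of chr15:3995747-3996038 from RefSeq, with AW549877 before the first base and A630020A06 after the last, and capitals mark the CCAAT and GGGCGG motifs on either strand.
AW549877 to A630020A06: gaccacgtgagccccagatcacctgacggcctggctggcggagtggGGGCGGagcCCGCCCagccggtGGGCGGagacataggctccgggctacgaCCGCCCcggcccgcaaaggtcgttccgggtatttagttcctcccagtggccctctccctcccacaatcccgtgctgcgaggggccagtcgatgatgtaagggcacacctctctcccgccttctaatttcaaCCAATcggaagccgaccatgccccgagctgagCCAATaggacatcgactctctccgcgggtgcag

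The stretch held 2 matches to CCAAT, a box bound by NF-Y, and 4 to GGGCGG, a box bound by Sp1 and its relatives. It held 1 match to the E-box CACGTG and no match to TGACNNNGC, the core of the antioxidant response element that NRF2 binds. Among 32851 windows of 300 bases around mouse start sites in the same table, 37.4% held CCAAT, 35.7% GGGCGG, 7.15% CACGTG and 12.4% TGACNNNGC. Guanine and cytosine made up 65.4% of the stretch, against a median of 52.7% over the windows. The first motifs are thus common in windows of this kind, and the matches are a description of the letters.

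The Esr1-low libraries without SFN, ConAstro replicates 1 to 4, held 0.067, 0.19, 0.12 and 0.10 CPM of A630020A06. The 7 Esr1-high libraries without SFN ranged from 0.54 to 0.84 CPM, with a median of 0.65. In the Esr1-low libraries with SFN its level was 0.17, 0.31, 0.11 and 0.078 CPM in SFN-fed ConAstro replicates 2 to 5 and 0.10 CPM in the SFN-fed library labelled cKOAstro replicate 2. The Esr1-high libraries with SFN ranged from 0.37 to 0.75 CPM, and the SFN-fed library labelled ConAstro replicate 1 held 0.47 CPM. Every one of the 14 Esr1-high libraries thus lay above every one of the 9 Esr1-low libraries, and both libraries that go against their labels lay on the side of their Esr1 level. Outside the 3 genes named with the rule, A630020A06 was the only gene without overlap, again 0.00578% of those tested. The gene was sparse, with 5 to 68 reads in an Esr1-low library and 22 to 290 in an Esr1-high one.

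On the log2 scale the difference in A630020A06 was 2.01 ± 0.24 (SE; 95% interval 1.52 to 2.504; edgeR adjusted p = 7.84e-05). It remained past the threshold in each of the 23 fits that left out 1 library, with values from 1.90 to 2.30 and an adjusted p of at most 0.000493. Among libraries without SFN alone it was 2.47 ± 0.27 (edgeR adjusted p = 0.00658), the 1 gene edgeR called of 17403, or 0.00575%. DESeq2 called 5 without SFN: A630020A06, Acer2, Echdc3, Foxd1 and Vsig2. Among libraries with SFN alone it was 1.66 ± 0.35 (edgeR unadjusted p = 0.000385, adjusted p = 0.76), where edgeR called 0 of 16669 genes (0%; 886 at an unadjusted p under 0.05) and DESeq2 called 4: A630020A06, Fbxl19, Hspa1a and Hspa1b. The difference between the diets in this gene was -0.82 on the log2 scale (edgeR interaction term, unadjusted p = 0.0744, adjusted p = 0.99). By genotype label the difference was 1.63 (edgeR adjusted p = 0.159), and in the 21 agreeing libraries it was 1.98 (edgeR adjusted p = 0.000600). A fit that adds whether a library has an Astro or a numbered name gave 1.90 (edgeR adjusted p = 0.00134). It used the names as given, also for the 2 libraries that go against their labels. On the first principal component each of these lay on the side of the other name series.

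**Figure D2:**
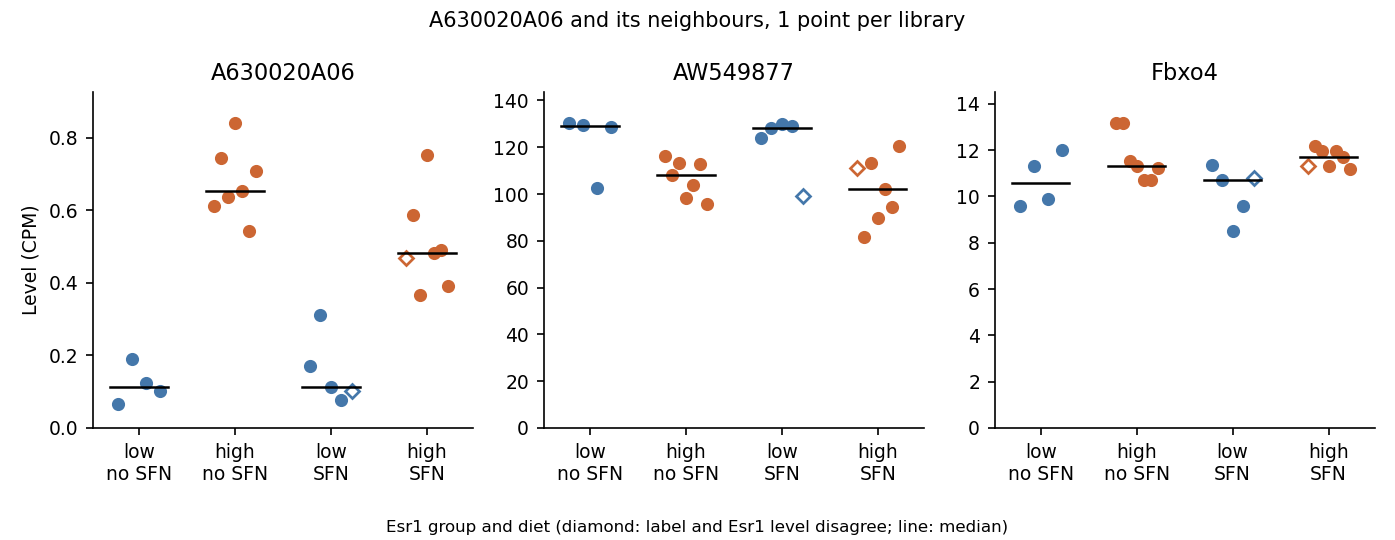
CPM of A630020A06, AW549877 and Fbxo4 in each library, by Esr1 group and diet; lines are medians and open diamonds are the 2 libraries whose label and Esr1 level disagree. A630020A06 does not overlap between the groups (0.067 to 0.31 against 0.37 to 0.84 CPM), while AW549877 and Fbxo4 do.

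The tested genes nearest to A630020A06 had smaller differences, and their groups overlapped. AW549877 measured 131, 129, 103 and 129 CPM in ConAstro replicates 1 to 4 and 124, 128, 130.04 and 129 CPM in SFN-fed ConAstro replicates 2 to 5, while the SFN-fed library labelled cKOAstro replicate 2 held 99.3 CPM. Esr1-high libraries ranged from 81.6 to 120 CPM, with a median of 106, so 7 of the 9 Esr1-low libraries lay above all of them and 2 lay among them. The difference was -0.23 ± 0.066 (log2, SE; edgeR unadjusted p = 0.00183, adjusted p = 0.681), and it was -0.21 without SFN and -0.26 with SFN. Fbxo4, which encodes an F-box protein of a ubiquitin ligase and lies next along, had medians of 10.7 CPM in the Esr1-low and 11.4 CPM in the Esr1-high libraries, with overlap between the groups and a difference of 0.16 ± 0.059 (edgeR unadjusted p = 0.0101, adjusted p = 0.681). On the other side, BC037032, a long noncoding RNA gene from 4020111 to 4027406, held 1.52 to 2.497 CPM in Esr1-low and 0.86 to 2.06 CPM in Esr1-high libraries, a difference of -0.19 ± 0.13 (edgeR unadjusted p = 0.169, adjusted p = 0.702). Oxct1, which encodes an enzyme of ketone body use, followed with -0.050 ± 0.061 (log2, SE) and medians of 289.7 CPM in Esr1-low and 275 CPM in Esr1-high libraries. Counting with or without strand is not stated in the sources used here. A630020A06 and AW549877 do not overlap in the annotation.

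Within 5 Mb of Slc1a3, 65 genes of the table were annotated and 53 were tested. The 1 call was A630020A06, and 8 of the 53, or 15.1%, had an unadjusted p under 0.05 (5 higher and 3 lower), against 6.4% of all genes. The median difference of the 53 was -0.050 on the log2 scale. Ranbp3l, a gene for a RAN-binding protein 0.257 Mb from Slc1a3, differed by 0.22 ± 0.099 (log2, SE; edgeR unadjusted p = 0.0402, adjusted p = 0.681). Its values overlapped, with 24.1 to 35.5 CPM in Esr1-low and 21.7 to 46.5 CPM in Esr1-high libraries.

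**Figure D3:**
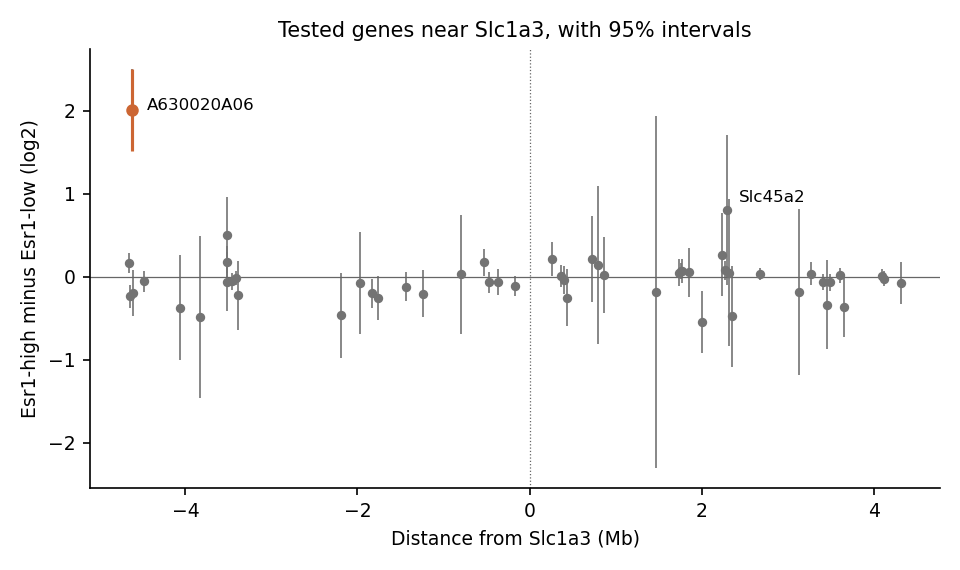
Difference between Esr1-high and Esr1-low libraries (log2, with 95% intervals) for the 53 tested genes within 5 Mb of Slc1a3, by distance from it in Mb. A630020A06, at 2.01, stands apart from the others, and the next highest, Slc45a2 at 0.81, has an interval that includes 0.

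Slc45a2 (chromosome 15, 11000721 to 11029233, 2.29 Mb from Slc1a3) encodes a transporter of pigment cells, and 1 library decided its result. It measured 0.50, 0.14, 0.080 and 0.24 CPM in ConAstro replicates 1 to 4, and 0.12, 0.078, 0.19 and 0.14 CPM in SFN-fed ConAstro replicates 2 to 5. Esr1-high libraries ranged from 0.36 to 0.92 CPM. The SFN-fed library labelled cKOAstro replicate 2, which is Esr1-low, held 1.64 CPM, more than any other. With that library the difference was 0.81 ± 0.44 (log2, SE; edgeR unadjusted p = 0.078, adjusted p = 0.681), and without it 1.73 (edgeR adjusted p = 0.0158). ConAstro replicate 1 alone of the other Esr1-low libraries reached the Esr1-high range. Among the agreeing libraries with numbered names, a set chosen after seeing the data, the difference was 1.71 (edgeR adjusted p = 0.271).

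Besides A630020A06, no gene passed in the edgeR fit of all 23 libraries, and the genes of lowest unadjusted p in each direction are given as such. Upward these were Cdca5, Rrs1, Ccdc85b and Gm19705, all with an edgeR adjusted p of 0.681. Cdca5 (chromosome 19, 6085097 to 6091773), which encodes sororin, a protein that holds sister chromatids together in dividing cells, differed by 0.48 ± 0.11 (log2, SE), with medians of 0.67 CPM in Esr1-low and 0.98 CPM in Esr1-high libraries. Its groups overlapped between 0.72 and 0.87 CPM. Rrs1 (chromosome 1, 9545408 to 9547455), a ribosome assembly factor, differed by 0.14 ± 0.037, and Ccdc85b (chromosome 19, 5453163 to 5457563) by 0.24 ± 0.065. Gm19705, a noncoding RNA gene on chromosome 1, differed by 0.49 ± 0.13, with 0.16 on the control diet and 0.79 with SFN.

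Downward, besides AW549877, the lowest p-values belonged to Slc25a43, Mir215, Cntn1 and Slfn3, again with an edgeR adjusted p of 0.681. Cntn1 (chromosome 15, 92051152 to 92341967), which encodes the neural adhesion protein contactin 1, was the best expressed of these, with medians of 126 CPM in Esr1-low and 99.6 CPM in Esr1-high libraries. Its difference was -0.30 ± 0.080 (log2, SE), -0.29 without SFN and -0.30 with SFN, and the groups overlapped between 102 and 125 CPM. Slc25a43, a gene of the mitochondrial carrier family, differed by -0.64 ± 0.17, and Slfn3, a schlafen family gene, by -0.88 ± 0.25. Reads over the Mir215 hairpin differed by -1.54 ± 0.41 at a mean of 0.06 CPM, a level at which poly(A) libraries hold few reads of it.

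The study names 4 further genes for the control diet besides A630020A06: Acer2, Vsig2, Foxd1 and Echdc3. They were chosen on these same libraries, so their values without SFN, where DESeq2 called all 4 and edgeR none of them, are no independent evidence, and the libraries with SFN come from other mice. Without SFN, Acer2, a Golgi ceramidase gene, differed by -0.40 ± 0.080 (log2, SE), and Esr1-high libraries there lay between 8.56 and 10.3 CPM against 10.98 to 13.4 CPM. With SFN it differed by 0.032 ± 0.28, and the groups overlapped from 9.20 to 21.4 CPM. Vsig2, which encodes an immunoglobulin-domain membrane protein, gave -0.69 ± 0.15 without SFN and -0.33 ± 0.34 with it. Echdc3, a gene of the enoyl-CoA hydratase family, gave 0.42 ± 0.11 and 0.018 ± 0.12.

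Foxd1, a forkhead transcription factor gene, gave values of opposite sign on the 2 diets. Its level was 5.06, 4.67, 3.67 and 5.28 CPM in ConAstro replicates 1 to 4, below the 5.48 to 10.4 CPM of the Esr1-high libraries without SFN. With SFN, the Esr1-low libraries held 10.2, 11.3, 7.10 and 7.61 CPM in SFN-fed ConAstro replicates 2 to 5 and 4.90 CPM in the SFN-fed library labelled cKOAstro replicate 2, against 3.37 to 7.42 CPM in the Esr1-high libraries. The differences were 0.74 ± 0.16 without SFN and -0.55 ± 0.22 with SFN (log2, SE). The test of the difference between diets gave -1.30 (edgeR interaction term, unadjusted p = 0.000182, adjusted p = 0.585; DESeq2 adjusted p = 0.0281). Over both diets Foxd1 measured 0.015 ± 0.20, and Acer2 -0.17 ± 0.16. Vsig2 gave -0.50 ± 0.20 and Echdc3 0.20 ± 0.086 over both diets, and all 4 had an edgeR adjusted p of at least 0.681. Of all genes, edgeR called 0 for a dependence on diet (0%; 707 at an unadjusted p under 0.05, lowest adjusted p = 0.481). DESeq2 called 7, which besides Foxd1 were the heat shock genes Hspa1a and Hspa1b, and Fbxl19, Haus3, Nob1 and Med20.

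The differences of single genes on one diet said little about the other. Across the 16660 genes tested on both diets, which share no mice, Pearson's r of the log2 differences was 0.021 and Spearman's rho 0.11. These values are across genes, which are not independent replicates. At an unadjusted p under 0.05, edgeR listed 648 genes without SFN (3.72%) and 886 with SFN (5.32%). Of the 597 among the former that were tested on both diets, 346, or 58.0%, had the same sign with SFN, against 55.5% of all genes. The 2 lists shared 14 genes of the same sign, which is 2.35% of the 597 and 1.58% of the 886.

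These 14 genes include, besides A630020A06, AW549877, Cdca5, Rrs1, Ccdc85b, Cntn1 and Slfn3, the genes Cdh4, Adam23, Idh2, Ivd, Gm19689, 4833422C13Rik and Raph1, which were chosen for naming after their values were seen. Idh2 encodes the mitochondrial isocitrate dehydrogenase that makes NADPH, and differed by 0.25 without SFN and 0.27 with SFN (log2). Its medians were 140 and 127 CPM in the Esr1-low and 162 and 166 CPM in the Esr1-high libraries, without and with SFN. Ivd, which encodes isovaleryl-CoA dehydrogenase of leucine breakdown, gave 0.24 and 0.21, with medians of 151 and 147 CPM against 170.04 and 172 CPM. The groups of both genes overlapped. Cdh4 and Adam23, genes for a cadherin and a cell surface adhesion protein, were lower, by -0.29 and -0.19 without SFN and -0.43 and -0.26 with SFN. None of these 7 passed the edgeR threshold over both diets; with libraries grouped by genotype label, DESeq2 called Idh2, Ivd, Raph1 and 4833422C13Rik.

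**Figure D4:**
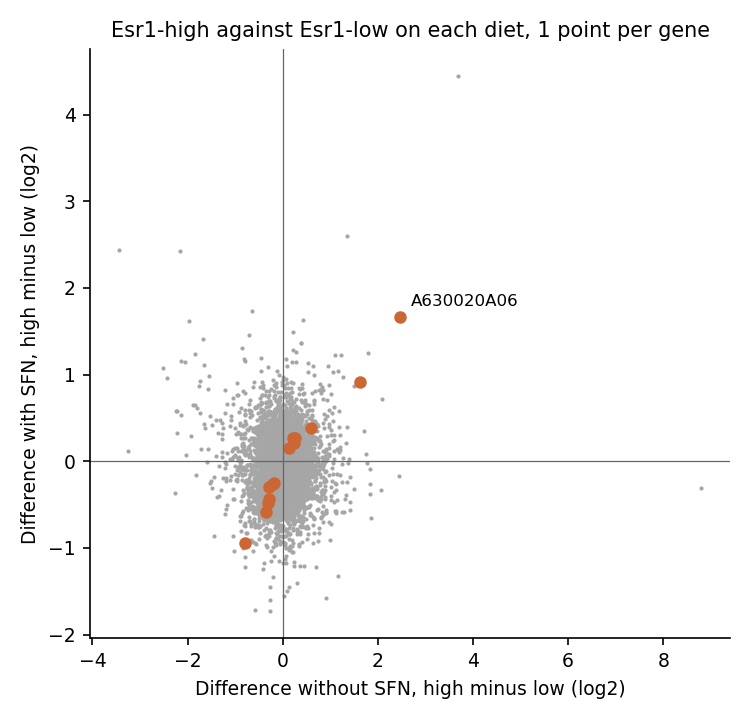
Difference between Esr1-high and Esr1-low libraries (log2) without SFN on the horizontal axis and with SFN on the vertical axis, 1 point for each of 16660 genes; the 14 genes with an unadjusted p under 0.05 and the same sign on both diets are in orange. The cloud shows no clear slope (Pearson's r 0.021) and A630020A06 lies at 2.47 and 1.66.

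Gene lists were read by their counts and medians beside all genes, whose median difference was 0.0052 on the log2 scale, and no member of any list besides A630020A06 passed (edgeR). With the same groups over both diets, neither DESeq2 nor limma-voom called a further member. DESeq2 called Ndufb7 with libraries grouped by genotype label, the study's other 4 genes without SFN, and Hspa1a and Hspa1b, of the dissociation stress list, with SFN. The 14 measured genes of lysine breakdown, the pathway of ALDH7A1, had a median of 0.047, with 9 above 0 and 5 below. Aass, which encodes the first enzyme of the main route, differed by 0.072 ± 0.13 (log2, SE). Gcdh, the glutaryl-CoA dehydrogenase gene further down, differed by 0.11 ± 0.070. Hykk, the hydroxylysine kinase gene, had the lowest p of the list at -0.23 ± 0.10 (edgeR unadjusted p = 0.0364, adjusted p = 0.681). In 12 of the 14 genes the 95% interval stayed within 0.5 of 0 on the log2 scale.

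The 17 other aldehyde dehydrogenase genes had a median of 0.021. Aldh1a1, a retinaldehyde dehydrogenase gene, had the lowest p at -0.17 ± 0.081 (log2, SE; edgeR unadjusted p = 0.0419, adjusted p = 0.681), with 46.4 to 68.4 CPM in Esr1-low and 38.1 to 63.6 CPM in Esr1-high libraries. Aldh4a1, of proline breakdown, gave 0.099 ± 0.049, and Aldh2 0.040 ± 0.065. The 17 genes of vitamin B6 handling and of enzymes that use pyridoxal phosphate had a median of 0.030, and 0 of 17 had an unadjusted p under 0.05. Pdxk, which encodes the kinase that makes pyridoxal phosphate, gave 0.20 ± 0.18. Cbs, the cystathionine synthase gene, had the lowest p of that list at 0.17 ± 0.11 (edgeR unadjusted p = 0.122, adjusted p = 0.684).

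Of 28 genes of NRF2 and its targets, 0 had an unadjusted p under 0.05, and the median was 0.028, 0.0034 without SFN and 0.030 with SFN. The 95% interval lay within 1 of 0 on the log2 scale in 28 of 28 and within 0.5 in 26. Keap1 was nearest to the threshold at 0.076 ± 0.037 (log2, SE; edgeR unadjusted p = 0.0501, adjusted p = 0.681), and Nfe2l2, the gene of NRF2 itself, gave 0.00048 ± 0.045. Among the targets, Nqo1, a quinone reductase gene, gave -0.16 ± 0.084. Slc7a11, of the cystine importer, gave -0.24 ± 0.13, and Gclc, of glutathione synthesis, -0.053 ± 0.054. The 20 further genes of glutathione and peroxidase enzymes had a median of 0.046, 1 unadjusted p under 0.05, and intervals within 0.5 of 0 in 20 of 20. That 1 was Glrx5, a mitochondrial glutaredoxin gene, at 0.17 ± 0.070 (edgeR unadjusted p = 0.0216, adjusted p = 0.681).

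The genes of ion and glutamate handling gave similar pictures. The 6 Na,K-ATPase subunit genes had a median of 0.0092, which joins 0.060 without SFN and -0.095 with SFN. Over both diets 0 of the 6 had an unadjusted p under 0.05 (edgeR). Of 15 genes of potassium and water buffering, 3 had an unadjusted p under 0.05, against 6.4% of all genes, and all 3 were lower: Slc4a4, a bicarbonate transporter gene, at -0.33 ± 0.11 (log2, SE; edgeR unadjusted p = 0.00556), Kcnk10 at -0.26 ± 0.11 and Kcnj16 at -0.21 ± 0.096, and none passed after adjustment (edgeR adjusted p = 0.681 each). Slc4a4 ranged from 842 to 1310 CPM in Esr1-low and from 508 to 1115 CPM in Esr1-high libraries. Kcnj10, the main inward rectifier of astrocytes, gave -0.13 ± 0.074 and Aqp4, the water channel gene, -0.17 ± 0.11. The 12 genes of glutamate uptake and the glutamine cycle, which leave out Slc1a3, had a median of -0.076. Slc1a2, the other astrocyte glutamate transporter gene, gave -0.24 ± 0.12 (edgeR unadjusted p = 0.0557, adjusted p = 0.681), and Slc38a3, a glutamine transporter gene, -0.16 ± 0.068 (edgeR unadjusted p = 0.0291, adjusted p = 0.681).

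In 2 lists all measured members lay above 0, where 51.7% of all genes were above 0 and 6.4% had an unadjusted p under 0.05. All 35 measured nuclear genes of NADH dehydrogenase, the first complex of the respiratory chain, were above 0, with a median of 0.11, 0.049 without SFN and 0.17 with SFN. The highest was Ndufb7 at 0.23 ± 0.090 (log2, SE; edgeR unadjusted p = 0.0181, adjusted p = 0.681), and 7 of 35 had an unadjusted p under 0.05. All 50 measured genes of cytosolic ribosomal proteins were above 0 as well, with a median of 0.14, 0.040 without SFN and 0.23 with SFN, and 15 had an unadjusted p under 0.05. Rpl27 had the lowest p at 0.23 ± 0.077 (edgeR unadjusted p = 0.00742, adjusted p = 0.681). Members of such lists vary together from library to library, and SFN-fed cKOAstro replicate 1 held the highest Rpl27 level, 58.7 CPM, and the highest Ndufb7 level, 77.7 CPM. Without that library the medians were 0.076 and 0.094, and in the 21 agreeing libraries the median was 0.15 for each list. Of the 19 genes of cholesterol synthesis, 16 lay below 0, with a median of -0.083 and 0 unadjusted p-values under 0.05 (edgeR).

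Lists of reactive astrocyte, immune and motile cilium genes had medians between -0.071 and 0.089 over both diets. The 14 reactive astrocyte genes had a median of -0.025. Lcn2, which encodes the secreted protein lipocalin 2, gave 4.09 ± 1.28 (log2, SE; edgeR unadjusted p = 0.004, adjusted p = 0.681). This value rested on few libraries: cKOAstro replicate 4 held 9.36 CPM, the SFN-fed library labelled ConAstro replicate 1 held 7.15 CPM and SFN-fed cKOAstro replicate 7 held 2.43 CPM, while the other Esr1-high libraries lay between 0.018 and 0.24 CPM and the Esr1-low libraries between 0 and 0.31 CPM. Without cKOAstro replicate 4 the difference was 2.27. By genotype label, which moves the SFN-fed library labelled ConAstro replicate 1 to the other group, Lcn2 gave 0.097 (edgeR unadjusted p = 0.951), in the 21 agreeing libraries 3.38, and with limma-voom 2.48. The 22 genes of antigen presentation and the interferon response had a median of -0.071, -0.17 without SFN and 0.044 with SFN. The 24 motile cilium genes had a median of 0.089, 0.28 without SFN and -0.057 with SFN. All the lists were chosen with earlier results of these data known, so none is independent evidence. In cortical tissue of mice with Aldh7a1 deleted globally, the study reports NADH dehydrogenase activity and cellular respiration among down-regulated themes. That tissue came from other mice, and the 35 NADH dehydrogenase genes measured here lay above 0.

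Among the markers of other cell types, those of endothelial cells leaned one way. All 10 endothelial markers were below 0, with a median of -0.49, -0.48 without SFN and -0.50 with SFN, and 6 had an unadjusted p under 0.05 (edgeR), against 6.4% of all genes, although none passed after adjustment. In the 21 agreeing libraries the median was -0.65. Kdr, a receptor gene for vascular growth factor, had the lowest p at -0.64 ± 0.26 (log2, SE; edgeR unadjusted p = 0.0238, adjusted p = 0.681), with medians of 41.8 CPM in Esr1-low and 19.5 CPM in Esr1-high libraries. The summed level of the 10 markers ranged from 288 to 731 CPM in Esr1-low libraries without SFN, 343 to 950.2 with SFN, 279 to 396 in Esr1-high libraries without SFN and 227 to 949 with SFN, so the groups overlapped on each diet, and no marker was at 0 throughout. In bulk RNA, fewer endothelial cells and less RNA per cell cannot be told apart. With name prefix as a block the median was 0.15, and only 2 of the 6 prefixes hold both groups. In those 2 prefixes the Esr1-high libraries were all SFN-fed. The part of endothelial RNA in the other results was not tested.

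Over both diets the remaining marker lists had smaller medians: -0.25 for 8 markers of oligodendrocyte precursors, -0.088 for 11 of mural cells and fibroblasts, 0.090 for 10 of oligodendrocytes, 0.073 for 14 of neurons, 0.034 for 12 of microglia and -0.024 for 12 of astrocytes. Several changed sign between the diets. Without and with SFN the medians were 0.31 and -0.088 for neurons, and -0.24 and 0.29 for microglia. They were 0.20 and -0.31 for mural cells and fibroblasts, and -0.045 and -0.25 for oligodendrocyte precursors. For oligodendrocytes they were -0.0026 and 0.19, and for astrocytes 0.014 and -0.092. The microglial median was -0.38 by genotype label and -0.19 in the 21 agreeing libraries. The 14 genes of dissociation stress had a median of -0.040, and 1 of them, Hsp90aa1, had an unadjusted p under 0.05, at 0.27 ± 0.12 (log2, SE; edgeR unadjusted p = 0.04). Alas2 was the 1 red blood cell marker measured and gave -0.13 ± 0.55. No list in this paragraph held a gene that passed after adjustment (edgeR).

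**Figure D5:**
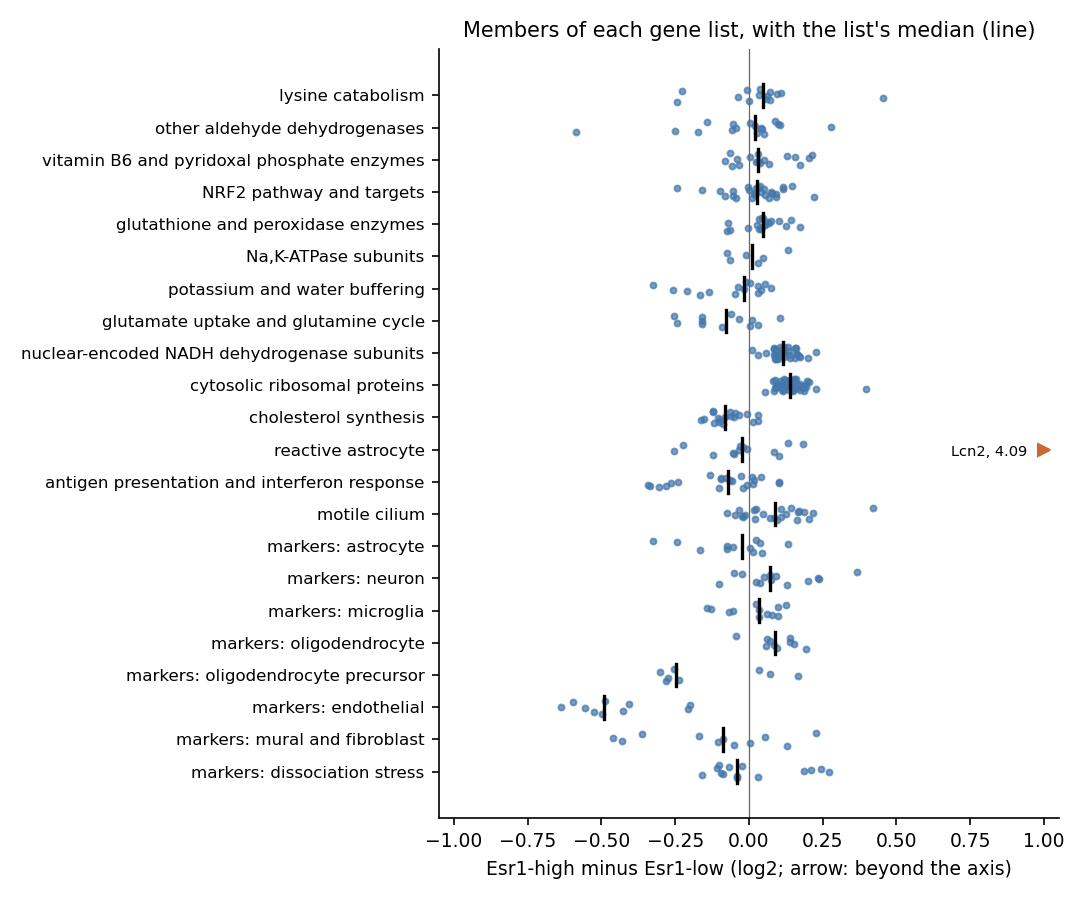
Difference between Esr1-high and Esr1-low libraries (log2) for each member of 22 gene lists (points), with each list's median (vertical lines). NADH dehydrogenase and ribosomal protein genes lie above 0 with medians of 0.11 and 0.14, endothelial markers lie below 0 with a median of -0.49, and Lcn2, at 4.09, lies beyond the axis.

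The width of the intervals shows what these 23 libraries could resolve. The median SE over all genes was 0.098 on the log2 scale. For 15790 of 17299 genes, or 91.3%, the 95% interval stayed within 1 of 0, and for 12124, or 70.1%, it stayed within 0.5 of 0. The central 95% of differences ran from -0.46 to 0.38. For the other 1509 genes a difference of 1 or more on the log2 scale was within the interval.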

How the data were processed

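RNA from 23 samples was measured. The authors checked reads with FastQC, used STAR to align them to mm10 and deposited raw counts of reads per gene symbol, with no normalization or pooling; versions, annotation and strand setting are not given in the sources used here. Of 24411 symbols, 24303 were matched to RefSeq for GRCm38.p6, 1109 of them by synonym. Library totals lay between 46890715 and 391701247 reads. Read counts carry counting error, and the intervals, from the fit, include the spread between libraries.

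Genes were kept by filterByExpr (minimum count 10, minimum total 15) and tested in R 4.3.3 with the quasi-likelihood F test of edgeR 4.0.16, with TMM normalization, diet and Esr1 group as terms, and Benjamini-Hochberg adjustment at 0.05 over all genes. Esr1, Aldh7a1 and Slc1a3 stayed in the fit and were left out of counts. Intervals are 95%. CPM are TMM-normalised. DESeq2 1.42.0, limma-voom (limma 3.58.1) and other settings were alternatives. The scripts were tested on simulated data. Chi-square per degree of freedom was at least 44.1 among 58 pairs of libraries of the same Esr1 group and diet, so each counted as 1 replicate. P-values measure the spread between mice. The main fit has no term for name prefix, so prefix and Esr1 group are not separated in it.

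Samples were grouped by the Esr1 rule, with the labelled genotype as an alternative. Named genes were the 3 genes of the rule, those past the threshold or the 5 of lowest p in each direction, the study's 5, the lowest p of each list and genes within 5 Mb of Slc1a3; Idh2, Ivd and other genes named from both diets were chosen after their values were seen. The members and lists were chosen with earlier results of these data known. No samples were left out.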

Additional observations from a re-analysis of the deposited data

Results flagged for a closer look

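Single libraries that stood far from the rest of their Esr1 group and diet were looked for in 176 sets of values, and 24 (13.6%) were found, by a limit that chance passes in about 1 of 20 independent sets. These sets share libraries, and many were chosen for a low p. Values are CPM.

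Among these libraries are the 2 whose labels are in doubt. The SFN-fed library labelled cKOAstro replicate 2, among Esr1-low libraries with SFN, held 1.64 of Slc45a2 (others at most 0.19), 99.3 of AW549877 (others at least 124), 66.9 of Ndufb7 (others at most 46.1), 43.4 of Rpl27 (others at most 33.3), 23.2 of Tekt4 (others at most 9.80) and 13.1 of Alas2 (others at most 3.08). The SFN-fed library labelled ConAstro replicate 1 held 7.15 of Lcn2. The library labelled cKOAstro replicate 2, which is labelled male, held 1541 of Xist against at most 0.59 in the other Esr1-high libraries without SFN, 0.0077 of Ddx3y against at least 88.4, and 30.4 of Tekt4 against at most 15.3.

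In the other Esr1-high libraries, cKOAstro replicate 4 held 9.36 of Lcn2 and 30.7 of Glrx5. SFN-fed cKOAstro replicate 1 held 76.1 of Ccdc85b, 34.8 of Glrx5 and 58.7 of Rpl27. SFN-fed cKOAstro replicate 3 held 65.5 of Kdr, replicate 4 held 524 of Atp1b3 and 18.5 of Alas2, and replicate 7 held 0.071 of Mir215.

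In the Esr1-low libraries without SFN, ConAstro replicate 1 held 44.7 of Ndufb7 and 129 of Idh2, below the others, and ConAstro replicate 3 held 103 of AW549877, 399.9 of Srebf2 and 130.1 of Ivd, below the others. The causes were not tested.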

How the results depend on the processing

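The 1 call over both diets, A630020A06, was also the 1 call of DESeq2, with RLE size factors, with no filter beyond 1 count, among numbered libraries, with name series, name prefix or library total as a further term, without the diet term, after thinning all libraries to the smallest total and without SFN. The count was 3 with limma-voom, 0 with the genotype as labelled, 2 in the agreeing libraries, 0 in SFN libraries alone and, chosen after seeing the data, 2 in agreeing libraries without the one against its sex label. Leaving out 1 library gave 1 to 2, with 2 without SFN-fed cKOAstro replicate 2, and 0 throughout for the dependence on diet, for which DESeq2 called 7. A630020A06 lost its call with the genotype as labelled (1.63) and in SFN libraries alone (1.66). Slc45a2 was called with limma-voom (1.64), in the agreeing libraries (1.72, or 1.79 without the one against its sex label) and without SFN-fed cKOAstro replicate 2 (1.73). Replicate numbers did not pair the samples (1 of 9 same-numbered pairs had a correlation over 0.1; range -0.12 to 0.26); with them as a replicate block edgeR called 1 gene (1551 at an unadjusted p under 0.05) and 0 for the dependence on diet.

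No gene below was called in either fit. With the genotype as labelled Foxd1 was -0.021 and Alas2 0.21; in the agreeing libraries -0.0054 and 0.23; without the one against its sex label -0.016 and 0.38. In numbered libraries Atp1b3 was -0.0048, Ifit1 0.0016, Tekt4 -0.010, Tubb3 -0.13, P2ry12 0.34 (0.20 in agreeing ones) and Cldn11 -0.025. With name series as a term Cbs was -0.00029, Ifit1 0.0025, Tekt4 -0.015, Tubb3 -0.13, P2ry12 0.37 and Cldn11 -0.012. With name prefix as a block Acer2 was 0.17, Vsig2 0.20, Aldh1a1 0.017, Atp1b3 -0.19, Slc38a3 0.075, Ifit1 0.31, Tekt4 -0.077, Tubb3 -0.45, P2ry12 0.089, Cldn11 -0.34, Cacng4 0.0033, Rgs5 0.33 and Hsp90aa1 -0.020, and the medians of endothelial and oligodendrocyte markers were 0.15 and -0.33. With library total as a term Acer2 was 0.049, Foxd1 -0.12 and Alas2 0.17; in SFN libraries alone 0.032, -0.55 and 0.62. Leaving out 1 library gave Foxd1 -0.094 to 0.13, Alas2 -0.43 to 0.26 and P2ry12 -0.30 to 0.012. The causes were not tested.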
